A study of Mus musculus with 6 samples.

Results

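The 5 genes studied here were grouped as genes of dendritic cells on their way to the lymph node. Ccr7, Fscn1, Ccl17, Ccl22 and Ccl5 were followed through single cells sorted from mouse visceral fat. They were taken by symbol, and 5 of the 33456 genes in the deposited matrices carry these symbols: Ccr7 (ENSMUSG00000037944), Fscn1 (ENSMUSG00000029581), Ccl17 (ENSMUSG00000031780), Ccl22 (ENSMUSG00000031779) and Ccl5 (ENSMUSG00000035042). The question was where their transcripts were found together, and how this differed between the diets. The data held 2 patterns. In a cluster of 41 cells, 24 from Control and 17 from HFD, most cells held most of the genes. Ccr7 was found in 40 of them, Fscn1 in 38, Ccl5 in 39, Ccl22 in 36 and Ccl17 in 28. Of all Ccl17 transcripts, 81.2% lay in 19 cells with at least 10 each, 16 of them from the Control group. Of these 19 cells, 11 lay outside that cluster. Cells with at least 10 transcripts of a gene likewise held 88.2% of those of Ccl5 and 77.2% of those of Ccr7.

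Dendritic cells take up antigen in tissues and, once activated, switch on the chemokine receptor CCR7, which reads CCL19 and CCL21 and guides the cells into lymphatic vessels and to the T cell zones of lymph nodes. Fscn1 encodes fascin, an actin-bundling protein of the long processes of mature dendritic cells. Ccl17 and Ccl22 encode the ligands of CCR4, a receptor of helper and regulatory T cells, and CCL5 attracts T cells and myeloid cells, through receptors that include CCR1 and CCR3. CCL5 is also a known product of cytotoxic T cells, and Ccl17 is a classical target of interleukin 4 and GM-CSF in dendritic cells.

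Epididymal fat was digested, and the cells carrying both CD45, found on all leukocytes, and CD11b, typical of myeloid cells, were sorted by flow cytometry. The series holds 3 samples on the control diet, named Control 1 to 3, and 3 samples on the diet labelled HFD, named HFD 1 to 3, in a study of fat in long-term obesity. Strain, age, sex and the length of the diet are not given in the sources used here. Whether the samples came from separate animals is not stated either; the p-values reflect sample-to-sample spread only, and this may be technical. Each sample gave 1 matrix of unique molecular identifiers (UMIs, which count single transcripts).

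Of the 2195 distinct barcodes, 1082 (49.3%) were listed in several samples. Each barcode was therefore counted only in the sample in which it had most UMIs, after removing cells with fewer than 200 genes or more than 10% mitochondrial UMIs. This left 2114 cells, 260 to 388 in each Control and 295 to 453 in each HFD sample. The samples' median depth ran from 6299.5 to 8518.5 UMIs per cell for Control and from 9261 to 10079 for HFD. Values with every one of the 5402 kept barcode entries counted where it was listed are called "as deposited" and stand beside the results they change. Because the 6 samples then share barcodes, their p-values are not independent. Summed markers of other cell types also differed between the diets: fibroblast markers held 965 to 2201 UMIs in 1000000 (CPM) in Control and 6445 to 7506 in HFD, macrophage markers 7075 to 9976 and 12152 to 12738, and cDC2 markers (type 2 conventional dendritic cells) 1366 to 1485 and 638 to 729. The T cell markers ranged from 59.9 to 81.5 CPM in Control and from 81.7 to 95.3 CPM in HFD. This sum includes Il7r, whose mean went from 18.7 CPM in Control to 46.8 in HFD. Cd3e (6.57 to 4.63), Cd3d (9.70 to 7.13) and Trbc2 (15.2 to 10.5) went the other way, so the sum is not read as more T cell RNA. The part of these cell types in the results below was not tested, beyond leaving out the fibroblast-like cells.

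Ccl17 and Ccl22 are near neighbours on mouse chromosome 8, in the gene order Pllp, Ccl22, Cx3cl1, Ccl17, Ciapin1. Their upstream sequences are shown because the pair is often named as one, while the differences between the diets measured below were unlike in size. Each run is the 250 bases before the transcription start, read 5′ to 3′ on the plus strand from RefSeq, build GRCm38.p6. The capitals in Ccl17 mark its match to TTC and GAA separated by 4 bases, the spacing that STAT6, the transcription factor of interleukin 4, prefers.
Ccl17, chr8:94810203-94810452: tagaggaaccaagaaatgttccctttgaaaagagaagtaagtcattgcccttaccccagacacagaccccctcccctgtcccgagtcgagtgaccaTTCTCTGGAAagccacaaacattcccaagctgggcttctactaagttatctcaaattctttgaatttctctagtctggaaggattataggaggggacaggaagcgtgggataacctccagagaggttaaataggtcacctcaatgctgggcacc
Ccl22, chr8:94745434-94745683: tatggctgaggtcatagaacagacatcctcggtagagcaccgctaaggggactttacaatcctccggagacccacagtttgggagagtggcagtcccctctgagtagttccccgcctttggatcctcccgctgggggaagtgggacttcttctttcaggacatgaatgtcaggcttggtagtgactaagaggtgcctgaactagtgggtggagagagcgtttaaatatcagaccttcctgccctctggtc
The capital letters lie 154 to 145 bases before the Ccl17 start, and the motif, which reads alike on both strands, had no match in the Ccl22 window. It was found in 5.85% of 32851 promoter windows of the same length. A second spacing, with 3 bases between TTC and GAA, which holds for most STAT factors, matched 99 to 91 bases before the Ccl17 start (7.02% of windows) and had no match for Ccl22; the 2 matches do not overlap. On both strands, neither the NF-kB consensus (7.25% of windows) nor GGAA and GAAA separated by 2 bases, the joint site of PU.1 and IRF4 (2.3%), matched in either window. A match is a string of letters only, and no binding was measured here. Of the 5 genes, Fscn1, Ccl17 and Ccl22 had an entry in the promoter table.

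In the sums of all kept cells of a sample, Ccl17, Ccr7 and Ccl22 were lower in HFD, whereas the differences in Fscn1 and Ccl5 did not pass the test. Ccr7, the lymph node homing receptor, stood at 112, 164 and 137 CPM in Control 1, 2 and 3 and at 57.5, 24.3 and 76.6 CPM in HFD 1, 2 and 3. It fell by 1.5 ± 0.33 on the log2 scale (edgeR quasi-likelihood test over all genes, adjusted p = 0.0087). The groups did not overlap, and HFD 2 was lowest. Genes lower in HFD without overlap made up 17.7% of those tested, and genes called lower by edgeR 17.2% of 10450, which is the background for the 3 calls among the 5 genes.

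Fscn1, the actin bundler, stood at 71.8, 116 and 55.7 CPM in Control and at 37.7, 26.5 and 70.6 CPM in HFD. HFD 3 lay above Control 3, so the groups overlapped, and the log2 difference of -0.97 ± 0.36 had an adjusted p of 0.071 (edgeR). Without HFD 3 it was -1.46 (adjusted p = 0.014), and without Control 3 it was -1.17 (adjusted p = 0.039), so the side of the threshold rested on these samples. Without the filter on low counts it was also called (-0.95, adjusted p = 0.0063, edgeR).

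Ccl17, a ligand of CCR4, gave the widest gap of the 5 genes. Its level was 115, 253 and 199 CPM in Control, from 446, 505 and 539 UMIs, and 12.1, 1.12 and 9.68 CPM in HFD, from 69, 4 and 44 UMIs. Every Control sample was above every HFD sample, and Ccl17 fell by 4.66 ± 0.49 on the log2 scale (edgeR adjusted p = 0.00032). As deposited the difference was still called but was -1.65 ± 0.13, and HFD 2 then listed 324 Ccl17 UMIs in place of 4. Changes of Ccr7 and Ccl22 were likewise smaller as deposited, at -0.94 and -0.81.

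Ccl22, the other ligand of CCR4, stood at 74.9, 177 and 78.9 CPM in Control and at 63.8, 29.8 and 45.1 CPM in HFD. The groups did not overlap, although Control 1 and HFD 1 were close, and Ccl22 fell by 1.36 ± 0.36 (edgeR adjusted p = 0.020). The call was lost without HFD 2 (adjusted p = 0.071) or without HFD 3 (adjusted p = 0.059), and without Control 2 the value was -0.85. Per UMI of Ccl22 there were 1.54, 1.43 and 2.52 UMIs of Ccl17 in Control and 0.190, 0.0374 and 0.215 in HFD. The groups did not overlap in this ratio, and the exact two-sided permutation p of 0.1 is the smallest that 3 against 3 samples allow.

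Ccl5 stood at 304, 390 and 358 CPM in Control and at 311, 142 and 299.9 CPM in HFD. HFD 1 lay above Control 1, and the log2 difference of -0.62 ± 0.26 had an adjusted p of 0.095 (edgeR). Without the filter on low counts it was called (-0.59, adjusted p = 0.019, edgeR). Leaving out the fibroblast-like cells, an alternative chosen after seeing the data, gave -1.34 for Ccr7, -4.48 for Ccl17 and -1.19 for Ccl22, each still called.

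**Figure D1:**
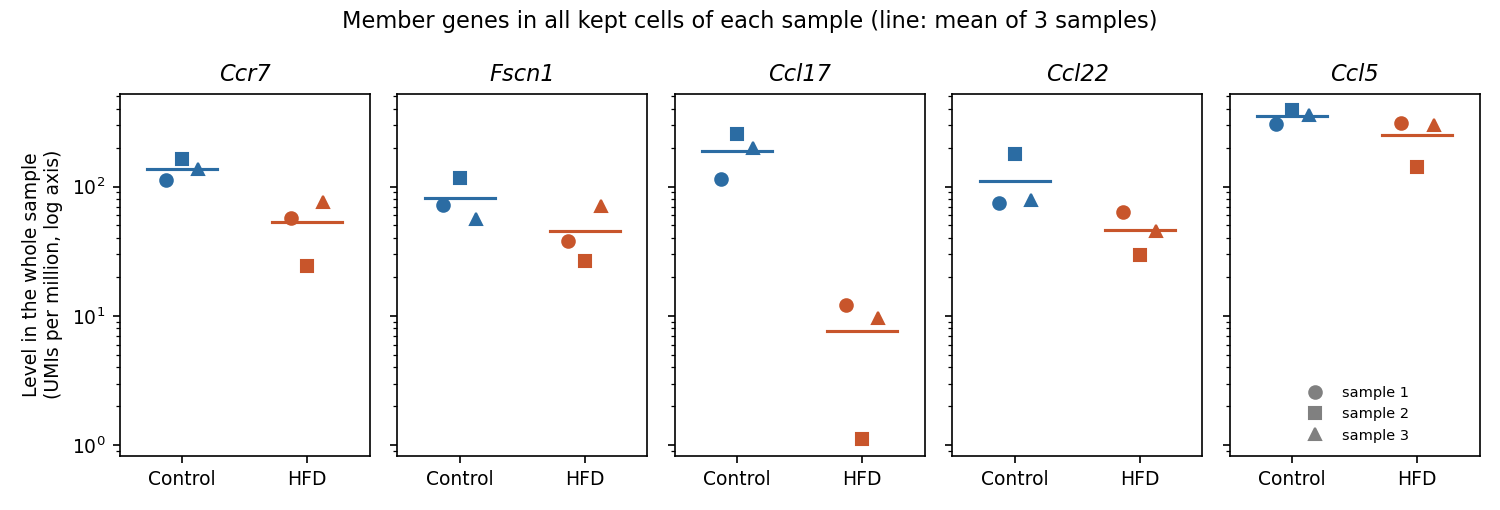
CPM of the 5 genes in all kept cells of each sample, on a log axis; points are samples and lines are means of 3. The Control points of Ccr7, Ccl17 and Ccl22 lie above the HFD points, with Ccl17 at 115 to 253 against 1.12 to 12.1, while Fscn1 and Ccl5 overlap.

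The cells in which Ccr7 and Fscn1 were found together were counted next. At least 1 UMI of each was found in 95 of the 2114 cells; the Control samples held 27, 18 and 14 of them and the HFD samples 14, 5 and 17. These are called the Ccr7 and Fscn1 cells below. Their share was 6.96%, 6.92% and 4.14% of Control cells and 3.09%, 1.69% and 4.47% of HFD cells. HFD 3 lay above Control 3, and the means of 6.01% ± 1.62 and 3.09% ± 1.39 (SD, n = 3 each) gave an exact two-sided permutation p of 0.2. As deposited the shares were nearly equal, with a difference of -0.126 percentage points (exact permutation p = 1).

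The 95 cells fell into 2 groups by cluster. Clusters built without the 5 genes placed 38 of them in 1 cluster of 41 cells, led by Ccr7 and Fscn1 themselves and by Apol7c, Il4i1, Nudt17, Socs2 and Cacnb3, with 11 of 12 migratory dendritic cell markers raised. It is called migratory dendritic cell-like, and holds 10, 7 and 7 cells of Control 1, 2 and 3 and 8, 1 and 8 of HFD 1, 2 and 3. In these 38 cells Ccr7 had a median of 33 UMIs and Fscn1 of 16, and no cell had fewer than 4 UMIs of either. The other 57 cells lay in other clusters, 17 of them in macrophage-like and 14 in cDC2-like clusters, and had medians of 1 UMI of Ccr7 and 1 of Fscn1 at a median depth of 13869 UMIs, against 11448.5 in the 38. Of the 57, 34 had a single Ccr7 UMI and 45 a single Fscn1 UMI.

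Low counts of Ccr7 were widespread. T cell-like cells held 10 Ccr7 UMIs in 8 of 51 cells, and plasma cell-like cells held 32 in 18 of 43. Fibroblast-like cells, which should lack the receptor, held 7 in 7 of 231 (3.03%, median depth 6823 UMIs). In fibroblast-like cells Fscn1 was found in 65 of 231 (28.1%). The threshold of 1 UMI thus joins cells with many UMIs of both genes to cells that mostly had few. Some of the 57 cells of other clusters held more, up to 28 Ccr7 or 13 Fscn1 UMIs. In HFD 2, 4 of the 5 cells lay in other clusters, with 3 to 15 Ccr7 UMIs and 1 to 13 Fscn1 UMIs. With at least 2 UMIs of both, 47 cells remained (28 Control, 19 HFD), and they held 74.9% of all Ccr7 UMIs and 71.9% of all Fscn1 UMIs.

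**Figure D2:**
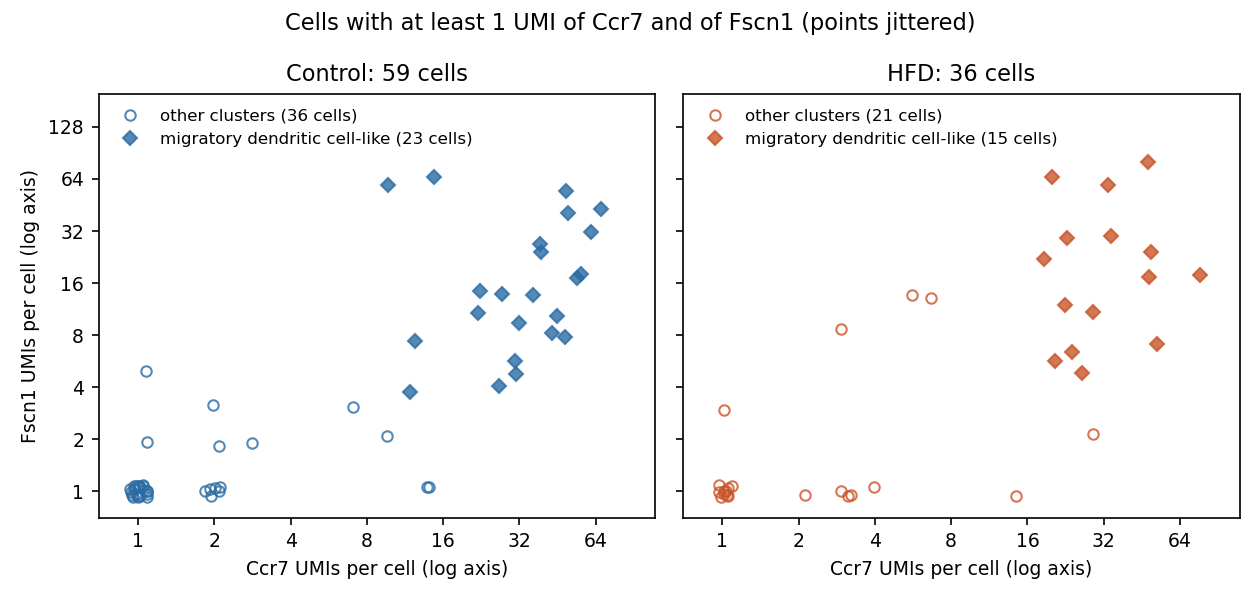
Ccr7 and Fscn1 UMIs of each of the 95 cells with at least 1 UMI of both, on log axes with jitter; filled diamonds are cells of the migratory dendritic cell-like cluster. The diamonds lie at 9 to 78 Ccr7 UMIs in both diets, and most open circles at 1 or 2 UMIs of each gene.

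Within a sample, the 3 chemokines were each found more often in the Ccr7 and Fscn1 cells than in the rest. Ccl17 was found in 48.1%, 77.8% and 35.7% of them in Control 1, 2 and 3 and in 57.1%, 40% and 17.6% in HFD 1, 2 and 3. Among the other cells it was found in 15.2%, 20.2% and 15.1% of those from Control 1, 2 and 3, and in 1.59%, 0% and 0.826% of those from HFD 1, 2 and 3. The mean difference was 37.2 percentage points, from 16.8 to 57.5, and was positive in 6 of 6 samples (exact sign-flip permutation test over samples, p = 0.03125, adjusted p = 0.03125 over the 3 genes, the smallest this design gives).

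Ccl22 was found in 40% to 71.4% of the Ccr7 and Fscn1 cells and in 6.55% to 23.1% of the others, a mean difference of 39.7 points. Ccl5 was found in 64.3% to 100% and in 12.1% to 34.1%, a mean difference of 48.3 points. Both were higher in 6 of 6 samples (exact sign-flip permutation p = 0.03125 each). HFD 2, with 5 such cells, gave both the highest Ccl5 and the lowest Ccl22 share. The Ccr7 and Fscn1 cells were deeper, with a median of 12429 UMIs against 8458. With each cell thinned to 3000 UMIs, the Ccr7 and Fscn1 cells were chosen again on the thinned counts. The mean differences were then 37.8, 64.0 and 64.5 points over the 5 samples that kept at least 5 such cells. For the 95 cells as first chosen, pooled over samples, the thinned shares of Ccl17, Ccl22 and Ccl5 were 26.3%, 41.1% and 55.8%. In the other cells they were 3.01%, 4.73% and 10.9%. Unthinned, these pooled shares were 47.4%, 52.6% and 69.5% against 8.07%, 12.0% and 24.4%.

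**Figure D3:**
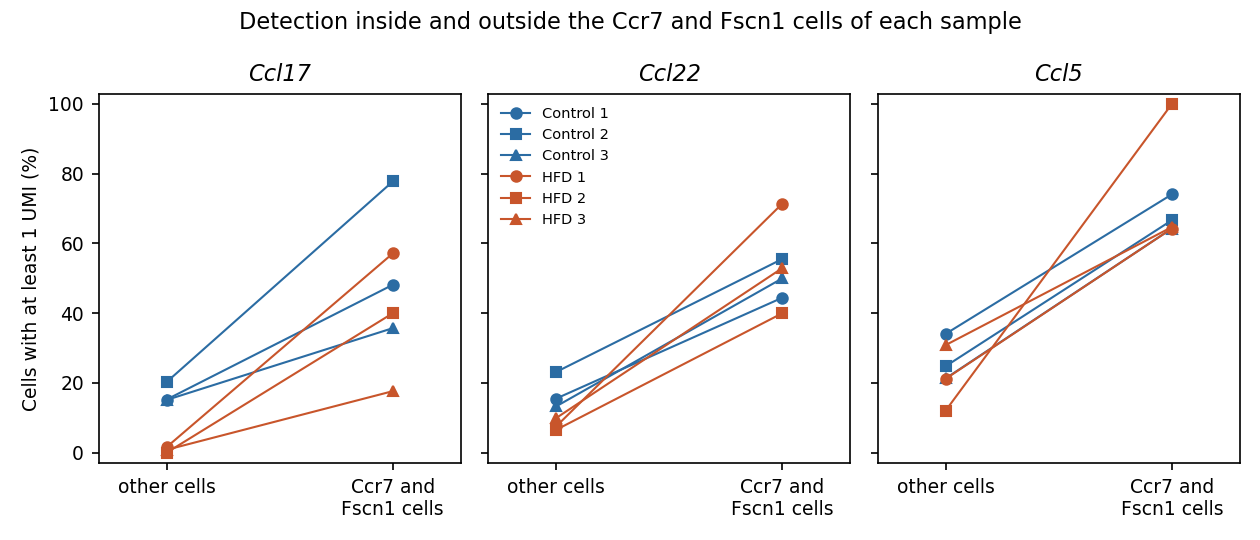
Share of cells with at least 1 UMI of Ccl17, Ccl22 or Ccl5 among the Ccr7 and Fscn1 cells and among all other cells, 1 line per sample. All 18 lines rise, and the HFD lines for Ccl17 start at 0 to 1.59%.

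Summed UMIs gave the same direction. In the Ccr7 and Fscn1 cells Ccl5 reached 2287 ± 1035 CPM against 173 ± 42.1 CPM in the other cells of the same samples (SD, n = 6; log2 difference 3.73 ± 0.19, adjusted p = 1e-09, edgeR with sample as a block). Ccl22 reached 707 ± 421 against 34.0 ± 15.3 CPM (4.37 ± 0.30, adjusted p = 3.5e-08). Ccl17 reached 353 ± 473 against 72.8 ± 85.6 CPM (3.03 ± 0.62, adjusted p = 0.0040), with an SD larger than the mean in both sums. The Ccl17 difference was 3.8 without Control 3, 4.15 by DESeq2, 4.34 with at least 2 UMIs of both genes and 1.76 when cells were chosen by Ccr7 alone, each still called. All 3 were thus called higher, against a background of 5.1% of the 7271 genes tested (9.2% called in either direction). Every value of Ccl22 and Ccl5 in these cells was above every value in the other cells, as for 1.9% of genes, and Ccl17 overlapped. Against the cDC2-like cells without both genes, Ccl5 and Ccl22 were still higher (3.64 and 2.17), whereas Ccl17 differed by 0.70 (adjusted p = 0.23). In shares of cells the calls against these cDC2-like cells were other ones. Ccl17 was found more often by 26.8 points, in 6 of 6 samples, and Ccl5 by 42.1 points, in 6 of 6 (exact sign-flip permutation, adjusted p = 0.047 each). Ccl22 lost its call, at 19.5 points in 5 of 6 samples (exact sign-flip permutation, adjusted p = 0.0625).

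How far the 3 chemokines shared cells is seen in the counts of cells. Of the 95 cells, 29 had UMIs of all 3 chemokines and 16 of none. Ccl17 and Ccl22 were together in 33. In the migratory dendritic cell-like cluster, 26 of 41 cells had all 3 and 1 had none. Among the 57 cells of other clusters, 5 had all 3 and 16 had none. Cells with Ccr7 alone numbered 225 and cells with Fscn1 alone 222, and 9 and 1 of them had all 3 chemokines.

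By diet, the counts of Ccl17 and Ccl22 were as follows. Among the Ccr7 and Fscn1 cells of the Control group, 32 of 59 had Ccl17 and 29 had Ccl22. Of the HFD cells 13 of 36 had Ccl17 (36.1%, exact 95% interval 20.8% to 53.8%, counting error only) and 21 had Ccl22 (58.3%, 40.8% to 74.5%). Ccl17 without Ccl22 was seen in 11 Control cells and 1 HFD cell, and Ccl22 without Ccl17 in 8 and 9. Each of the 11 had only 1 or 2 Ccl17 UMIs, and 1 of them was migratory dendritic cell-like. A single Ccl17 UMI was also found in 5 of 29 Control T cell-like cells and in 0 of 22 from HFD. The 11 against 1 is therefore not read as a change in co-detection. Ccl5 was found in 41 of 59 and 25 of 36, or 69.5% and 69.4%. The samples of the diets overlapped in each of these shares.

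Within the migratory dendritic cell-like cluster the levels overlapped as well. Ccr7 stood at 2560, 3084 and 3711 CPM in Control and 3251, 3350 and 2872 CPM in HFD, the HFD 2 value being 1 cell. Ccl17 stood at 1201, 1711 and 248 CPM in Control and at 483, 0 and 423 CPM in HFD (exact permutation p = 0.3). Ccl22 stood at 1251, 3286 and 1154 CPM and at 3783, 0 and 1167 CPM (exact permutation p = 0.9), and Ccl5 at 4819, 4593 and 6044 CPM and at 10878, 882 and 5801 CPM (exact permutation p = 0.8). With 1 to 10 cells per sample, a difference between the diets within the cluster was not detectable at this depth, which does not show that the levels were alike.

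Single cells of the cluster differed widely. Ccl5 ranged from 0 to 312 UMIs, Ccl22 from 0 to 143 and Ccl17 from 0 to 107. The cell with 107 Ccl17 UMIs (Control 1) had 31 of Ccl22 and 1 of Ccl5, and the cell with 312 Ccl5 UMIs (HFD 1) had 10 of Ccl22 and 1 of Ccl17. A cell of HFD 1 held 143 Ccl22 UMIs beside 29 of Ccl17 and 43 of Ccl5. Among the 41 cells, 1 cell of HFD 3 had no UMI of any of the 5 genes, at 2847 UMIs in all.

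Outside the Ccr7 and Fscn1 cells, Ccl17 and Ccl22 were again lower in HFD. Ccl17 stood at 87.7, 138 and 204 CPM in Control and at 5.45, 0 and 1.66 CPM in HFD, a log2 difference of -5.82 ± 0.53 (edgeR adjusted p = 0.00013), which was -7.36 without HFD 1. Ccl22 stood at 48.3, 47.2 and 47.3 CPM in Control and at 25.8, 14.9 and 20.6 CPM in HFD, and fell by 1.34 ± 0.18 (edgeR adjusted p = 0.00067). Ccl5 stood at 160, 234 and 189 CPM and at 168, 105 and 183 CPM, with a difference of -0.48 ± 0.21 that did not pass (adjusted p = 0.10), but did without the filter on low counts (-0.46, adjusted p = 0.026, edgeR). Genes called lower made up 17.9% of 10281 in these sums. As deposited the change of Ccl17 was -1.58 (adjusted p = 4.8e-05, edgeR).

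Few cells carried most Ccl17. At least 10 UMIs were found in 19 cells, 16 from Control and 3 from HFD, and these held 81.2% of all Ccl17 UMIs. By cluster, 8 were migratory dendritic cell-like with 310 UMIs, 7 were cDC2-like with 502 and 4 were in unnamed clusters with 493. The 8 had 5 to 64 Ccr7 UMIs each. The other 11 had 0 to 6 Ccr7 UMIs and 0 to 2 Ccl5 UMIs, with 0 to 40 Ccl22 UMIs. Ccl22 was found in 17 of the 19 cells. Both cells with 180 UMIs came from Control 3, in a cluster of 150 cells led by Lyz1, Ear2 and Retnla of which 146 were from Control, and the cell with 188 UMIs was a cDC2-like cell of Control 2. In Control 3, 3 cells outside the Ccr7 and Fscn1 cells held 451 of the sample's 539 Ccl17 UMIs.

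**Figure D4:**
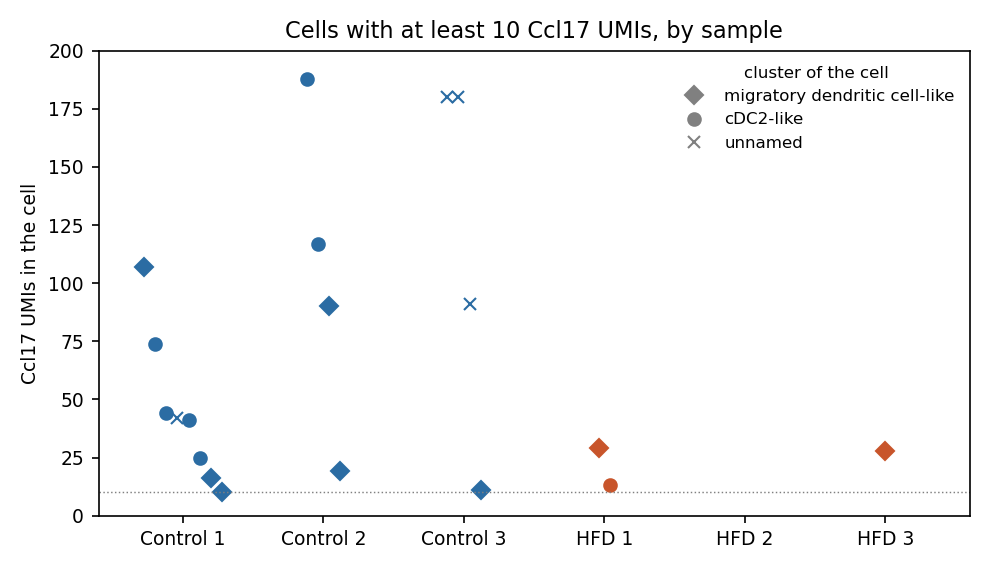
Ccl17 UMIs of each cell with at least 10, by sample, with symbols for the cluster of the cell. Control samples hold 16 such cells with up to 188 UMIs, HFD 1 holds 2, HFD 3 holds 1 and HFD 2 none.

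In Control cells outside the Ccr7 and Fscn1 cells, 153 of 927 (16.5%) had Ccl17, but so had 5 of 29 Control T cell-like cells (17.2%), which should lack it, at median depths of 6891 and 3604 UMIs. In HFD, 10 of 1092 (0.916%) had Ccl17 and 0 of 22 T cell-like cells, which allows a share of up to 13.6%. The T cell-like share has an exact 95% interval of 5.85% to 35.8%, and the part of free RNA in these shares was not tested. The Control cells with Ccl17 included 28 of the 91 cDC2-like cells outside the Ccr7 and Fscn1 cells (30.8%, median depth 9648 UMIs). With cells thinned to 3000 UMIs the Control shares were 16.1% in these cDC2-like and 5% in T cell-like cells. Ccl22 was found in 155 of the same 927 Control cells (16.7%) and 3 of 29 T cell-like cells, and in 88 of 1092 HFD cells (8.06%) and 2 of 22. Without the cells of 10 or more UMIs, Ccl17 stood at 18.6, 33.6 and 27.0 CPM in Control and at 3.10, 0 and 1.66 CPM in HFD. Over all cells Ccl17 was found in 19.2% ± 4.39 of Control cells and 1.86% ± 1.34 of HFD cells (exact permutation p = 0.1, adjusted p = 0.17 over the 5 genes), Ccr7 in 20.7% ± 3.50 and 9.99% ± 4.10, Ccl22 in 19.2% ± 5.50 and 9.48% ± 2.36, Fscn1 in 16.0% ± 2.82 and 14.2% ± 3.46, and Ccl5 in 29.2% ± 7.01 and 22.8% ± 9.41. As deposited the shares lay closer: Ccl17 12.2% and 3.92% (exact permutation p = 0.1), Ccr7 10.9% and 8.11% (p = 0.3), Ccl22 10.5% and 9.73% (p = 0.5), Ccl5 21.7% and 21.3% (p = 1), and Fscn1, in the other direction, 8.08% and 9.70% (p = 0.4).

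By cell class, the migratory dendritic cell-like cluster held the highest mean level of Ccr7, Fscn1, Ccl22 and Ccl17. For Ccr7 it stood at 3138 ± 398 CPM (SD, n = 6 samples), and the next class, cDC2-like, at 96.4 ± 51.8. Fscn1 stood at 1830 ± 600 CPM, then 53.8 ± 40.0 in fibroblast-like cells. Plasma cell-like cells followed at 27.1 ± 32.0, unnamed at 23.2 ± 20.6 and cDC2-like cells at 20.2 ± 21.1. Over all 6 samples these classes overlapped, with a spread that takes in both diets. Within HFD, Fscn1 stood at 48.1, 100 and 77.6 CPM in fibroblast-like and at 8.66, 5.37 and 9.47 CPM in cDC2-like cells, without overlap. In Control, with 3 to 11 fibroblast-like cells per sample, these classes overlapped. Ccl22 stood at 1774 ± 1449 CPM, then 138 ± 35.9 in cDC2-like and 39.1 ± 34.6 in unnamed cells.

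For Ccl17 and Ccl5, 2 classes stood close together. The migratory dendritic cell-like value of Ccl17, 678 ± 646 CPM, and the cDC2-like value, 299.9 ± 499, overlapped. In cDC2-like cells it stood at 352, 1283 and 86.3 CPM in Control and at 77.9, 0 and 0 CPM in HFD (exact permutation p = 0.1), with 6 of the 7 fullest cells from Control. Ccl22 in the same cells was 140, 170 and 158 CPM in Control and 69.2, 156 and 137 CPM in HFD (exact permutation p = 0.2). Ccl5 stood at 5503 ± 3222 CPM in migratory dendritic cell-like and at 5921 ± 2663 CPM in T cell-like cells, which do not differ beyond their spread.

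**Figure D5:**
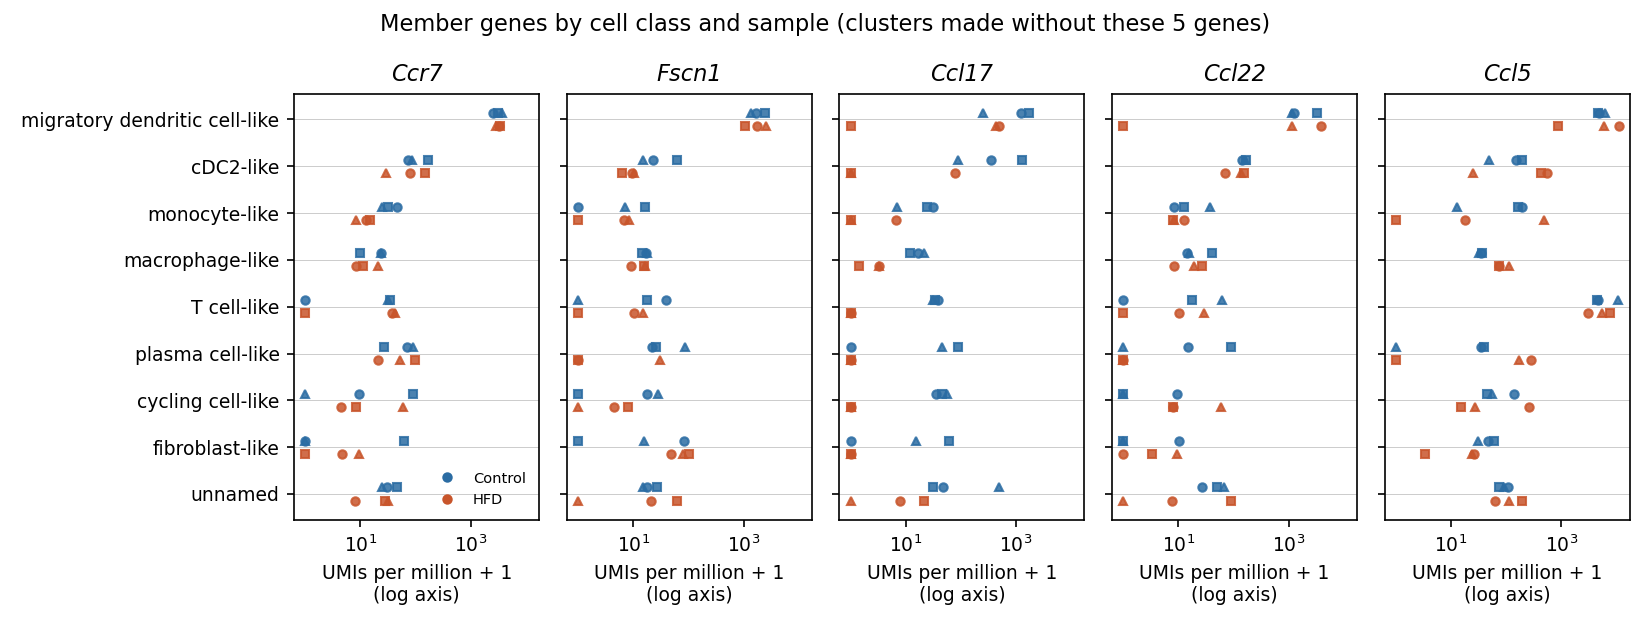
CPM plus 1 of the 5 genes by cell class, on log axes, 1 point per sample. Ccr7, Fscn1 and Ccl22 peak in the migratory dendritic cell-like cluster, Ccl5 is high there and in T cell-like cells, and the HFD points of Ccl17 lie at or near 0 in most other classes.

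Ccl5 was thus spread over 2 lineages. Cells with at least 10 Ccl5 UMIs numbered 92 and held 88.2% of its UMIs; 32 were migratory dendritic cell-like with 42.4% of all Ccl5 UMIs and 23 T cell-like with 26.9%. In macrophage-like cells there were 17, all from HFD samples. For Ccr7, 38 of the 45 cells with at least 10 UMIs were migratory dendritic cell-like, for Fscn1 26 of 28 and for Ccl22 20 of 30.

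In sums over the 1004 macrophage-like cells (308 Control, 696 HFD), Ccl5 rose from 33.6 ± 2.05 to 84.9 ± 21.7 CPM in HFD (SD, n = 3 each; log2 1.28 ± 0.23, edgeR adjusted p = 0.0063), where 4.41% of 8410 genes were called higher. The call was lost as deposited (0.44, adjusted p = 0.093), with coarser clusters (1.16, adjusted p = 0.15) and with the 5 genes kept in the clustering (1.01, adjusted p = 0.082). Of the 812 HFD UMIs, 568 lay in 17 of the 696 cells, those with at least 10 each. Control held no such cell. By cluster, 368 of the 812 lay in 33 of 52 cells of a cluster led by Cxcl9 and Gbp2, interferon-induced genes. Of these 368, 308 lay in 10 cells, and by sample 226 lay in 9 cells of HFD 1. Ccl5 was found in 20.1% of Control and 24.7% of HFD macrophage-like cells. With cells thinned as above, the shares were 9.02% and 8.25%. The higher sum is therefore not read as a rise across the class. T cell-like cells also hold Ccl5, and doublets were not called, so their part was not tested. Different clusters held most of the class in each diet, led by Cd209f, Cd209g and Cd163 in Control and by Fabp4 and Gdf15 or Spp1 and Gpnmb in HFD.

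Ccl17 was also called lower in macrophage-like sums (-3.29 ± 0.45, edgeR adjusted p = 0.0021; 7.73% of genes called lower), from 41 UMIs in 39 of 308 Control cells (12.7%) and 17 in 7 of 696 HFD cells (1.01%). It was -4.27 with coarser clusters and -2.62 with no filter on cells. The Control share was not above that of the 29 Control T cell-like cells given above, at median depths of 6330 and 3604 UMIs, so no expression in macrophage-like cells is read from it; the part of free RNA was not tested. Ccr7, Fscn1 and Ccl22 differed by -0.72, -0.41 and -0.35 (adjusted p = 0.31, 0.47 and 0.72).

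Of the 371 genes called higher in the Ccr7 and Fscn1 cells, those with the largest differences, among genes found in at least 25% of these cells, were Apol7c (6.48 ± 0.25, from 3.76 to 314 CPM), Nudt17 (6.15), Cacnb3, a calcium channel subunit (5.53), Ccl22, Socs2, a brake on cytokine signalling (4.21), Eno3, muscle enolase (4.21), Il4i1, a secreted amino acid oxidase (4.18), Spint2, a protease inhibitor (4.09), Tbc1d4 (3.75), Cd200, ligand of an inhibitory receptor (3.75), Ccl5, Serpinb9, an inhibitor of granzyme B (3.66), Zmynd15 (3.47), Rogdi (3.18) and Serpinb6b (3.17). Rogdi was found in 100% and Il4i1 in 95.1% of the cells of the migratory dendritic cell-like cluster. Of 38 other genes listed for the program, 32 were tested and 26 were higher, 0 lower, with a median of 2.50 against -0.05 over all genes. The list overlaps the markers that named the cluster, and was chosen with earlier results known.

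UMIs of other cell types' markers were also found in these cells. Summed macrophage markers stood at 1498 CPM in the 38 cells of the migratory cluster, 8302 CPM in the 57 others and 11344 CPM in the rest. T cell markers stood at 146, 59.1 and 81.1 CPM, and at least 3 of 7 T cell markers were found in 3 of the 38 and 1 of the 57 cells. The part of free RNA or doublets in these values and in those of Ccl5 was not tested. The 8 cDC2 markers were all detected in each of these 3 groups of cells. They stood at 567 CPM in the 38 cells, 1084 CPM in the 57 others and 990 CPM in the rest.

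Listed genes around the members are given by diet in the whole sums, where 17.2% of all 10450 genes were called lower and 15.2% higher. Of the same 38 program genes 35 were tested, and 17 fell and 1 rose in HFD (median -0.74, all genes -0.02), among them Samsn1 (-1.78), the costimulator Cd86 (-1.25), Myo1g (-0.86) and Traf1 (-1.55). Of 12 genes listed as inducers of Ccl17 and Ccl22, 8 fell and 0 rose (median -0.81). The transcription factor Irf4 went from 42.7 to 8.72 CPM (-2.42 ± 0.18, edgeR adjusted p = 0.00011), Csf2rb, the shared receptor chain for GM-CSF, fell by 1.05, Kdm6b, a histone demethylase, by 1.00, and the interleukin 4 receptor Il4ra by 0.90. Of 11 tested cDC2 genes 9 fell and 1 rose, with the lectins Cd209a at -2.53 and Mgl2 at -3.02. The sums cannot separate fewer such cells from less RNA in each.

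Among receptors and ligands, Ccr1 fell by 1.80 and Ccr3 rose by 2.4 (0.838 to 4.93 CPM, edgeR); both encode receptors of CCL5. Ccl19, a ligand of CCR7, went from 1.3 to 11.2 CPM (2.87 ± 0.39, adjusted p = 0.00091). Of 5 tested cytotoxic lymphocyte genes 1 fell, Nkg7 (-1.44, adjusted p = 0.042, edgeR), and of 6 tested T cell markers 1 rose, Il7r; both counts are near the shares over all genes, 17.2% lower and 15.2% higher. Cd3e and Cd3d differed by -0.65 and -0.63 (adjusted p = 0.14 and 0.22). Of 4 tested B cell markers 3 fell and 1 rose, Ebf1, which progenitor cells of fat also express. Of 5 tested cDC1 genes Batf3 and Naaa fell and Cadm1 and Irf8 rose.

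Profiles over the 17 clusters, with counts pooled over samples, described which genes resembled each member. The points share libraries and differ in depth, so no test is given. Over 8025 genes, Ccr7 was most like Ccl22 (Pearson r = 0.94), Tmem123, Il12b, Il4i1 and Relb (0.91). Ccl22 in turn was most like Ccr7, Strip2, Net1, Il4i1 and Relb. Fscn1 was most like Clu (0.90), Dkk2, Ktn1, Cacnb3 and Lrrk1. Ccl17 was most like Upb1 (0.93), Ramp3, Ahcyl2, Avpi1 and Haao, and Ccl5 was most like Vhl (0.90), Psme1, Tmem128, H2-Q7 and Il2ra. Of the other 4 members, Ccl22 alone shared genes with Ccr7 among these 5, namely Il4i1 and Relb.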

How the data were processed

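Cells were CD45 and CD11b positive cells of 3 Control and 3 HFD samples. The authors deposited 1 matrix of UMI counts per sample; per the submitters' processing notes Cell Ranger, Seurat 2.4 and mm9 were used, with no role given, and the sources used here do not give how barcodes were called. Barcodes were kept with at least 200 genes and at most 10% mitochondrial UMIs, each in the sample with most UMIs. Scanpy 1.11.5 clustered 2000 variable genes without the 5 genes (30 components, 20 neighbours, Leiden resolution 1). Classes were named from marker lists, by thresholds chosen after seeing the data; no doublet caller was run. UMIs were summed per sample and tested with edgeR 4.0.16 (TMM, quasi-likelihood, Benjamini-Hochberg, 0.05) or exact permutation. Intervals are 95% Clopper-Pearson and, like the limit from 3 counts for a share of 0, cover counting error only. Named genes were the largest differences in the Ccr7 and Fscn1 cells among called genes found in 25% of them, the listed genes with the smallest p, and the 5 genes most alike by Pearson r. The members and lists were chosen with earlier results of these data known. Alternatives were other barcode forms, thresholds, clusterings, DESeq2 1.42.0, filters, thinning and leaving out samples. The edgeR steps were tested on simulated data. The labels give replicate numbers but no pairing, and the main diet tests used none.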

Additional observations from a re-analysis of the deposited data

Results flagged for a closer look

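The entries left out because their barcode had more UMIs in another sample also held Ccl17. In HFD these entries held 229 CPM of Ccl17 (217.7, 228.4 and 240.7 in HFD 1, 2 and 3), above the 157 CPM of such entries in Control (187.9, 137.4 and 157.1 in Control 1, 2 and 3). Of the 910 UMIs, 902 lay in 657 entries whose largest entry was in a Control sample (365 CPM) and 8 in 403 entries whose largest entry was in another HFD sample (5.33 CPM).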

How the results depend on the processing

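The share differences of Ccl17, Ccl22 and Ccl5 between the Ccr7 and Fscn1 cells and the others moved with the choice of cells. They were 37.8, 64.0 and 64.5 points with cells thinned and chosen again on the thinned counts. With at least 2 UMIs of both genes they were 55.4, 75.0 and 70.4 points. Leaving out a sample gave 33.2 to 41.3, 34.9 to 41.9 and 40.4 to 51.2 points; all of these rest on 5 samples, where the smallest exact p is 0.0625, so no call could be made. The diet comparisons of shares cannot go below an exact p of 0.1 and say nothing about stability. Against cDC2-like cells Ccl22 lost its call, at 19.5 points. The Fscn1 share reversed as deposited (1.62 points).

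Genes called in whole sums numbered 3389, and 2233 to 3333 without a sample. In macrophage-like sums there were 1021, with 1823 as deposited, 1760 without the low-count filter and 379 to 1392 without a sample. In the Ccr7 and Fscn1 cells against the others there were 669, with 1539 at 2 UMIs of both, 372 for Ccr7 alone, 1429 as deposited, 1099 without the filter and 379 against cDC2-like cells, where Ccl17 differed by 0.70. Without the filter Fscn1 (-0.95) and Ccl5 (-0.59) in whole sums, and Ccl5 outside the Ccr7 and Fscn1 cells (-0.46), became called (edgeR adjusted p = 0.0063, 0.019 and 0.026). Without a sample Fscn1 ranged from -1.46 to -0.64 and Ccl22 from -1.66 to -0.85, and Ccl17 outside the Ccr7 and Fscn1 cells from -7.36 to -5.37. In macrophage-like sums Ccl22 ranged from -0.75 to 0.14 without a sample and was 0.13 with coarser clusters; Ccl5 was 0.44 as deposited, 1.16 with coarser clusters and 1.01 with the 5 genes in the clustering. The cause was not tested.

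With the replicate number as a block, Ccl22 in whole sums was -1.30 (edgeR adjusted p = 0.073), and 2416 genes were called in whole, 2592 in outside and 552 in macrophage-like sums. Same-numbered samples did not deviate together (r = -0.19, -0.08 and -0.14, against -0.01 to 0.16 for other numbers). These values cannot show whether same-numbered samples shared a run or batch. Sums of cDC2-like cells were not tested across genes, since HFD samples held 16 to 19 of them. Leaving out ambiguous barcodes removed no cell. Classes of under 20 cells per sample, and 1 migratory dendritic cell-like cell in HFD 2, limit what depth can show.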
